A study of Mus musculus with 10 samples.

Results

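The 6 epithelial keratin genes Krt7, Krt8, Krt18, Krt19, Krt20 and Krt23 were examined in colonic intestinal epithelial cells (IECs) of WT and RhoB-/- mice. They were taken by gene symbol from a table of 55487 genes, which held all 6. RNA-seq libraries came from untreated C57BL/6J mice, 5 labelled wild type (WT) and 5 labelled RhoB-/-, homozygous for a whole-body knockout, with 1 library per animal. The knockout line was made at a model organism center, and the methods give another supplier for WT males. The paper also mentions WT littermates in another experiment, and which WT mice were sequenced is not stated. The source of the mice may therefore differ with genotype, and the 2 cannot be told apart. The methods give 6 to 8 weeks as the age of mice except where another is named, and none is named for the sequenced mice. The sex of the sequenced RhoB-/- mice is not given in the sources used here. The epithelium was released from opened colons with EDTA, and the labels give the tissue as colon.

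Keratins are the intermediate filament proteins of epithelial cells, and each filament is built from pairs of a type I and a type II chain. In the simple epithelium of the gut, the type II chain is mainly keratin 8, with keratin 7 as a minor partner, and the type I chains are keratins 18, 19 and 20. Keratin 20 is known as a marker of differentiated cells at the intestinal surface, and keratin 23 is a type I keratin of low abundance. The filaments are anchored to desmosomes between cells and to hemidesmosomes at the basement membrane.

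Of these 6 keratins, Krt20 changed most between the genotypes. Its mean TPM (an expression level relative to all RNA of a library and corrected for transcript length) in RhoB-/- mice was 2.29 times that in WT mice. Krt23, at a level below 10 TPM in every library, was lower in RhoB-/- mice, but this call was lost in most fits that left out 1 library. For Krt8, Krt18, Krt19 and Krt7 the difference between the genotypes did not pass the test. Fewer cells of a type and less RNA per cell cannot be told apart in such bulk samples.

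The targeted gene was measured first. The Rhob TPM was 170.5, 302.8, 364.9, 333.4 and 388.7 in WT replicates 1 to 5. It was 0.09, 0.1, 0.35 and 0.57 in RhoB-/- replicates 1 to 4, and 110.9 in the library labelled RhoB-/- replicate 5. The last value goes against the label, and its origin was not tested. That library stays with the genotype on its label, and calls of genes named here that were lost without it are given below. The share of TPM from mitochondrially encoded genes was between 17.5% and 26.5% for WT replicates. In RhoB-/- replicates 1 to 5 it was 19.4%, 22.4%, 10.3%, 17.1% and 12.1%. The epithelial marker Epcam averaged 1157 ± 125.9 TPM for WT and 1424 ± 217.4 TPM for RhoB-/- mice (SD, n = 5 each), and Cdh1 averaged 310.0 and 336.6 TPM. TPM keeps no sequencing depth, so the reads behind each value are unknown.

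Krt20 (chromosome 11, 99428403 to 99438150, minus strand, GRCm38) has 8 exons. Its TPM was 688.4, 624.5, 902.4, 588.1 and 797.4 in WT replicates 1 to 5. In RhoB-/- replicates 1 to 5 it was 1652, 1069.5, 1621, 1505 and 2414. Every RhoB-/- library was above every WT library, with RhoB-/- replicate 2 nearest to the WT range and replicate 5 the highest. The mean was 720.2 ± 129.2 TPM for WT and 1652 ± 485.4 TPM for RhoB-/- mice (SD, n = 5 each). Differences in log2(TPM + 1) were tested with limma for all 12870 genes that averaged 1 TPM or more, and p was adjusted over them by the Benjamini-Hochberg method. Fold changes on this scale are given as log2FC, RhoB-/- minus WT. The log2FC of Krt20 was 1.17 (standard error 0.20, 95% interval 0.73 to 1.60, limma adjusted p = 0.00224). An exact permutation test, two-sided, gave p = 0.00794, the smallest that 5 against 5 libraries allow. Without the library labelled RhoB-/- replicate 5 the log2FC was 1.02 (limma adjusted p = 0.00389).

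**Figure D1:**
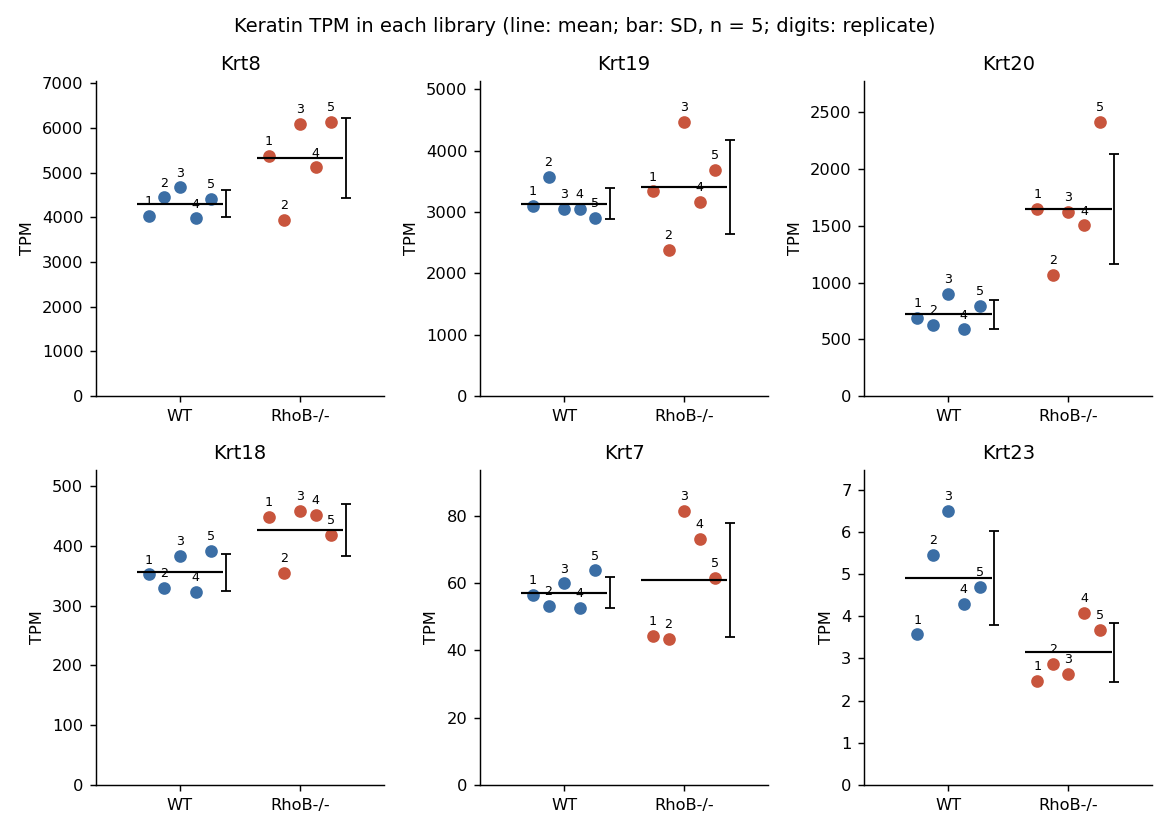
TPM of the 6 keratins in each WT and RhoB-/- library (points with replicate numbers, lines for means, bars for SD, n = 5 per genotype). For Krt20 the RhoB-/- libraries lay between 1069.5 and 2414 TPM, above the WT libraries at 588.1 to 902.4 TPM, while the other 5 keratins overlapped between the genotypes.

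Of the 6 keratins, 1 was called higher (Krt20) and 1 lower (Krt23), with a call meaning an adjusted p below 0.05. Of all tested genes, 995 (7.73%) were called higher for RhoB-/- mice and 1734 (13.5%) lower. The paper's thresholds are a fold change over 1.5 and p under 0.05. With p taken as unadjusted and the fold on log2(TPM + 1), Krt20 was the only one of the 6 to pass, beside 820 higher genes (6.37%) and 1072 lower genes (8.33%). For Krt23 the added 1 decides this, since its fold was 0.704 on that scale (unadjusted p = 0.00869, limma) but its ratio of mean TPM was 0.641, which is past 1.5-fold. The genotypes did not overlap in TPM for 1 of the 6 keratins, again Krt20, and among tested genes this held for 5.97% with RhoB-/- higher and 8.55% with RhoB-/- lower. Over the tested genes the median log2FC was -0.13, and -0.01 when the median of each library was made equal. With this centring, which moves every log2FC by the same amount, 2004 genes were called higher and 1608 lower. The balance of these counts is therefore set by the scaling and does not show the direction of small changes.

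The bases before the start of Krt20 and of its neighbor Krt23 are shown because these are the keratins that passed the test, in opposite directions, from genes 39823 bases apart on the same strand. Each is the 250 bases before the start in the RefSeq promoter table (GRCm38.p6), in which 5 of the 6 keratins were found, all but Krt19. The Krt20 stretch is chr11:99438154-99438403 and the Krt23 stretch is chr11:99493121-99493370, both read from the minus strand. Capitals mark the TATA box letters TATAAA, the TEAD factor core GGAATG and the Krüppel-like factor core CACCC, on either strand.
Krt20: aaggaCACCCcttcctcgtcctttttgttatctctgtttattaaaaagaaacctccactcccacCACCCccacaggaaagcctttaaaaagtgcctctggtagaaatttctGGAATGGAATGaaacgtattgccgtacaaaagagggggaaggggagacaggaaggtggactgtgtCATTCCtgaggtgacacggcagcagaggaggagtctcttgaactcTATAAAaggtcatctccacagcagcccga
Krt23: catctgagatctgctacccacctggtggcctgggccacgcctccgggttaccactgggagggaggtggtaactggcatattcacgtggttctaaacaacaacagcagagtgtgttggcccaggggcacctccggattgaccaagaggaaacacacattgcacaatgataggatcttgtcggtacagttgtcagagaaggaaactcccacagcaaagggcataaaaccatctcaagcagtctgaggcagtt
In the Krt20 stretch TATAAA stood at bases -29 to -24, and GGAATG stood at -139 to -134 and at -134 to -129, sharing 1 base, with a match on the other strand at -74 to -69. The GGAATG search was chosen after the Krt20 sequence had been seen. Within the 250 bases, CACCC was found 2 times for Krt20 and for Krt8, 1 time for Krt7 and for Krt18 and 0 times for Krt23. Neither TATAAA nor GGAATG was found in Krt7, Krt8, Krt18 or Krt23. The RefSeq starts differ from the gene positions given in this text, which are from GENCODE. The 250 bases of Krt7 (chr15:101412153-101412402) lie inside the GENCODE gene, and those of Krt8, Krt18 and Krt23 overlap theirs in part. A search of the table's whole 300-base windows, made after a match at the edge had been noticed, found TATAAA across the start of Krt8, on both strands, and a second CACCC for Krt18, at bases 5 to 9 counted from the start. TGACTCA and the interferon response element core (GAAA, any 2 bases, GAAA) were found in none of the 5 windows. Of 32851 promoters in the table, 12.4% had TATAAA, 12.6% GGAATG, 52.0% CACCC, 4.46% TGACTCA and 2.98% the interferon response element core before the start. In the whole windows these shares were 13.6%, 14.7%, 57.5%, 5.2% and 3.44%. A match describes the letters only.

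Krt23 (chromosome 11, 99477974 to 99493137, minus strand, 8 exons) was the least abundant of the 6. Its TPM was 3.57, 5.46, 6.5, 4.3 and 4.7 in WT replicates 1 to 5. In RhoB-/- replicates 1 to 5 it was 2.47, 2.86, 2.64, 4.07 and 3.68. RhoB-/- replicates 1, 2 and 3 were below every WT library, while replicates 4 and 5 lay above WT replicate 1. The mean was 4.91 ± 1.12 TPM for WT and 3.14 ± 0.695 TPM for RhoB-/- mice (SD, n = 5 each). The log2FC was -0.51 (standard error 0.16, 95% interval -0.86 to -0.15, limma adjusted p = 0.0443; exact permutation test, two-sided, p = 0.0238). This call held in only 2 of 10 fits that dropped 1 library each, those without WT replicate 1 (adjusted p = 0.0266, limma) and without RhoB-/- replicate 4 (adjusted p = 0.0390). In the other 8 fits the adjusted p was 0.0558 to 0.105, and all 10 kept the lower direction. It was also lost with library medians made equal (log2FC -0.39, adjusted p = 0.0871, limma) and with quantile normalization (-0.31, adjusted p = 0.169).

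Krt8 (chromosome 15, 101996698 to 102004482, minus strand, 9 exons), the main type II keratin, was the most abundant of the 6 and ranked 15 of all genes by mean WT TPM. Its TPM was 4031, 4446, 4669, 3974 and 4419 in WT replicates 1 to 5. In RhoB-/- replicates 1 to 5 it was 5370.4, 3938, 6086, 5117 and 6128. Of the RhoB-/- libraries, 4 were above every WT library and replicate 2 was below every WT library. The log2FC was 0.29 (standard error 0.14, 95% interval -0.02 to 0.60, limma adjusted p = 0.163; exact permutation test, two-sided, p = 0.0635).

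Krt18, the type I partner of Krt8, lies 23697 bases from it (chromosome 15, 102028180 to 102032027, plus strand, 7 exons). Its TPM was 352.4, 330.1, 382.9, 322.9 and 392.0 in WT replicates 1 to 5. In RhoB-/- replicates 1 to 5 it was 448.7, 354.3, 458.8, 451.3 and 418.8. As for Krt8, 4 RhoB-/- libraries were above every WT library, and replicate 2 was within the WT range. The log2FC was 0.26 (standard error 0.11, 95% interval 0.02 to 0.50, limma adjusted p = 0.111; exact permutation test, two-sided, p = 0.0317). Both genes passed the threshold in the fit without RhoB-/- replicate 2, with log2FC values of 0.40 for Krt8 (adjusted p = 0.0431, limma) and 0.32 for Krt18 (adjusted p = 0.0441). They also passed with library medians made equal, at 0.41 (adjusted p = 0.0233, limma) and 0.37 (adjusted p = 0.0285). They did not pass with quantile normalization, at 0.47 for Krt8 (adjusted p = 0.189, limma) and 0.16 for Krt18 (adjusted p = 0.271), or without mitochondrial genes, at 0.21 (adjusted p = 0.137) and 0.18 (adjusted p = 0.141). RhoB-/- replicate 2 had the lowest TPM of its genotype for Krt7, Krt8, Krt18, Krt19 and Krt20, and also the highest mitochondrial share of its genotype, and the part of that share in these values was not tested.

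Krt19 (chromosome 11, 100140810 to 100148665, minus strand, 6 exons), the second most abundant keratin, ranked 22 of all genes in WT mice. Its TPM was 3104, 3572, 3053, 3053 and 2905 in WT replicates 1 to 5. In RhoB-/- replicates 1 to 5 it was 3336, 2386, 4465, 3170.1 and 3687. The RhoB-/- libraries lay on both sides of the WT range. The log2FC was 0.09 (95% interval -0.26 to 0.44, limma adjusted p = 0.701; exact permutation test, two-sided, p = 0.579), and it was -0.01 without RhoB-/- replicate 3.

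Krt7 (chromosome 15, 101411043 to 101430313, plus strand, 9 exons), the minor type II keratin, averaged 57.2 ± 4.67 TPM for WT and 60.8 ± 16.9 TPM for RhoB-/- mice (SD, n = 5 each). The WT libraries ranged from 52.7 to 63.8 TPM and the RhoB-/- libraries from 43.5 to 81.5 TPM, so the spread was wider in RhoB-/- mice. The log2FC was 0.05 (95% interval -0.33 to 0.42, limma adjusted p = 0.872; exact permutation test, two-sided, p = 0.802). It was -0.07 without RhoB-/- replicate 3, -0.03 without RhoB-/- replicate 4 and -0.03 without mitochondrial genes. For these genes, a p that misses the threshold does not show that the genotypes did not differ. Annotated genes overlap Krt7 and Krt8 at their 5′ ends, Gm671 on the other strand of Krt7 (mean TPM 0.334 for WT and 0.112 for RhoB-/- mice) and Gm36026 on the other strand of Krt8 (1.27 and 1.54 TPM). The methods name an orientation mode for the alignment, but whether the quantification used strand is not stated there, so reads of these overlaps cannot be told apart.

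**Figure D2:**
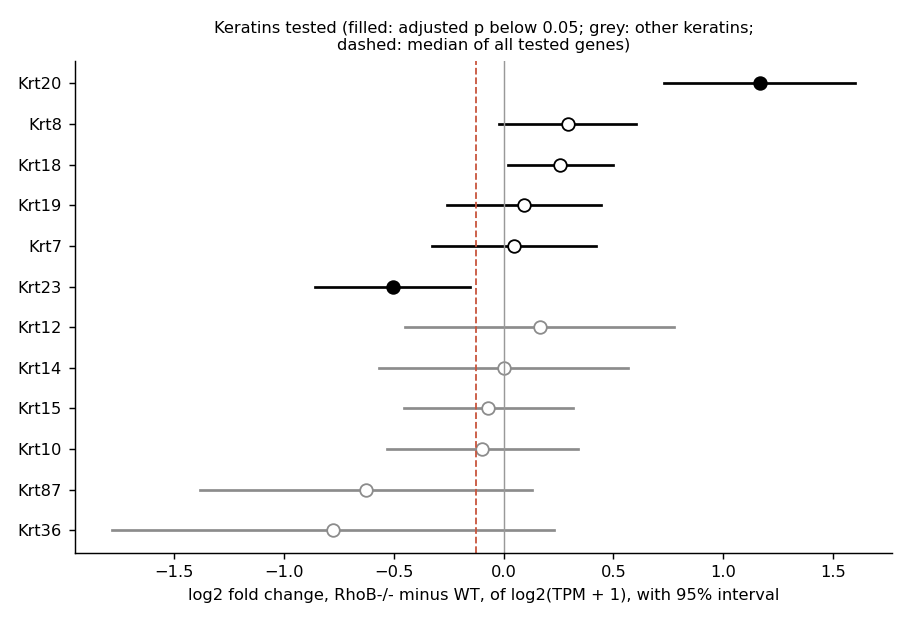
Log2 fold change (RhoB-/- minus WT, on log2(TPM + 1)) with 95% interval for the 6 keratins (black) and 6 other keratins with a mean TPM of at least 1 (grey), with the median of all tested genes at -0.13 (dashed). Only Krt20 at 1.17 and Krt23 at -0.51 had an adjusted p below 0.05 (filled, limma), and the call of Krt23 was lost with library medians made equal.

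Among the keratins, the rise of Krt20 changed the makeup of the keratin RNA. The 6 genes made up 99.8% of the TPM of all 54 keratin genes in WT and 99.9% in RhoB-/- mice. Their summed TPM was 8584 ± 476 in WT and 10879 ± 2034 in RhoB-/- mice (SD, n = 5 each), which is 0.873% and 1.10% of a library. Krt20 held 6.91% to 9.95% of this sum among WT libraries, against 12.7% to 19.0% among RhoB-/- libraries. The share of Krt19 was 33.6% to 39.5% in WT and 29.0% to 35.1% in RhoB-/- libraries, with an overlap. Krt8 held close to the same share in both, with means of 50.2% and 49.1%. These shares are parts of a sum, so a higher share of Krt20 lowers the others.

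The ratio of Krt20 to Krt8 TPM was 0.171, 0.14, 0.193, 0.148 and 0.18 in WT replicates 1 to 5. It was 0.308, 0.272, 0.266, 0.294 and 0.394 in RhoB-/- replicates 1 to 5. The ratios did not overlap, also for RhoB-/- replicate 2, in which Krt8 itself was below the WT range. The ratio of Krt20 to Krt19 was 0.175 to 0.296 in WT and 0.363 to 0.655 in RhoB-/- libraries. By contrast, the ratio of Krt8 to Krt18 was 12.1 ± 0.885 in WT and 12.5 ± 1.47 in RhoB-/- mice, and the summed type I TPM per type II TPM was 0.968 ± 0.0479 and 1.01 ± 0.0428 (SD, n = 5 each).

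**Figure D3:**
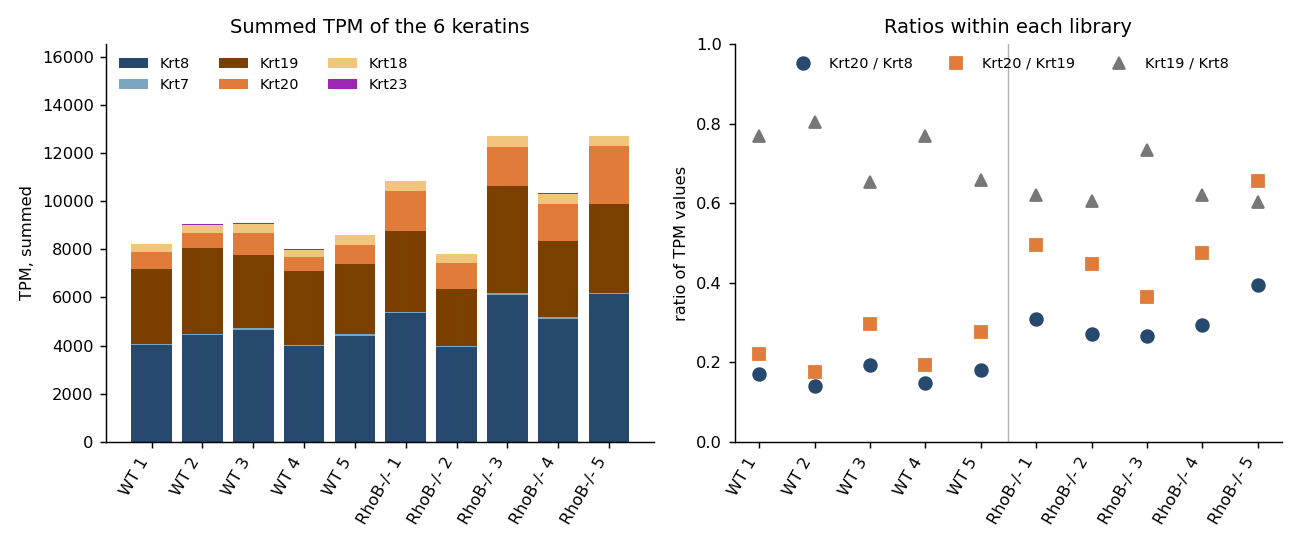
Summed TPM of the 6 keratins (left, stacked bars) and ratios of TPM values (right, points) in each of the 10 libraries. The ratio of Krt20 to Krt8 was at most 0.193 in WT and at least 0.266 in RhoB-/- libraries.

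Of the 48 other keratin genes in the table, 6 had a mean TPM of at least 1, 29 were lower and 13 were listed at 0 in every library. Of the 29, the genotypes did not overlap for 2, and 6 (20.7%) had an exact p below 0.05 without adjustment. Among all 15244 genes at such levels, 1.26% did not overlap with RhoB-/- higher and 1.59% with RhoB-/- lower, and 9.38% had such a p. Krt83 was lower in every RhoB-/- library, with means of 1.34 TPM for WT and 0.176 TPM for RhoB-/- mice, and Krt27 was higher in every one, with means of 0.148 and 0.572 TPM. For each of them p was 0.00794 by the exact permutation test, two-sided, without adjustment for the 29 genes. For the other 4, all with a higher mean in RhoB-/- mice, p was 0.0159 (Krt13), 0.0238 (Krt84), 0.0397 (Krt78) and 0.0397 (Krt222). In the fit without the TPM filter Krt83 had a log2FC of -0.99 and Krt27 of 0.46 (adjusted p = 0.00516 and 0.00444, limma), and the other 4 did not pass (adjusted p 0.0914 to 0.178). With depth unknown, the counting error at such levels is unknown too. The 6 above the filter were Krt10, Krt12, Krt14, Krt15, Krt36 and Krt87, and none had an adjusted p below 0.05 (limma). Krt36 was uneven among WT libraries, at 0.54, 1.14, 8.66, 2.94 and 8.29 TPM in replicates 1 to 5, against 1.04 to 1.9 TPM in RhoB-/- libraries (log2FC -0.78, 95% interval -1.79 to 0.23, limma adjusted p = 0.242), and the log2FC was -1.13 to -0.47 with 1 library left out. Krt87 ranged from 1.87 to 2.45 TPM over WT replicates 1 to 4 and reached 9.98 TPM in replicate 5, against 0.95 to 2.31 TPM in RhoB-/- libraries. The log2FC values of Krt10, Krt12, Krt14 and Krt15 were -0.10, 0.16, -0.0004 and -0.07, and those of Krt10, Krt14 and Krt15 turned positive with library medians made equal.

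Markers of differentiated surface colonocytes were compared beside Krt20. Of 6 such genes, 3 rose and 0 fell, while 7.73% of all tested genes were called higher and 13.5% lower. Their median log2FC was 0.75, against -0.13 over all tested genes. The aquaporin Aqp8 averaged 177.1 ± 69.5 TPM for WT and 479.8 ± 212.7 TPM for RhoB-/- mice (SD, n = 5 each; log2FC 1.44, limma adjusted p = 0.0103). The cell adhesion molecule Ceacam20 had a log2FC of 1.41 (adjusted p = 0.000543) and the carbonic anhydrase Car4 of 1.11 (adjusted p = 0.00549, limma). For these 3 genes every RhoB-/- library was above every WT library, and all 3 kept an adjusted p below 0.05 in each of the 10 fits that left out 1 library. The other 3 did not pass, with log2FC values of 0.39 for Car1, the most abundant of the list, 0.28 for the chloride exchanger Slc26a3 and -0.03 for Guca2a. The summed TPM of the 6 markers was 13293, 13965, 19809, 16851 and 16383 in WT replicates 1 to 5, and 16198, 15629.8, 25208, 20919 and 28325 in RhoB-/- replicates 1 to 5. Their part in the Krt20 difference was not tested.

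Other cell type markers also differed between the genotypes, beside 7.73% of all tested genes called higher and 13.5% called lower. Of 4 epithelial genes, Vil1, a brush border actin bundler, and the transcription factor Cdx2 rose, with log2FC values of 0.65 (adjusted p = 0.00638) and 0.42 (adjusted p = 0.0447, limma). Epcam, the most abundant, at 0.29 (adjusted p = 0.14) and Cdh1 at 0.13 (adjusted p = 0.477, limma) did not pass. Of 6 goblet cell genes, Clca1 and Fcgbp rose and 0 fell, while Muc2, the most abundant, had a log2FC of -0.19 (95% interval -0.59 to 0.21). Tff3 at 0.46 (adjusted p = 0.107) and Spdef at 0.05 (adjusted p = 0.85, limma) did not pass. Agr2 had a log2FC of -0.59 (adjusted p = 0.0523, limma), and passed as lower in 2 of the 10 fits that left out 1 library and in 3 of 7 other ways of processing. Of 4 enteroendocrine genes, 3 fell, Pyy, Chgb and Chga, with log2FC values of -1.26, -0.84 and -0.69. Of 4 crypt stem cell genes Smoc2 fell (-1.05, adjusted p = 0.00604, limma), and Axin2, the most abundant, had a log2FC of -0.33 (adjusted p = 0.159). Lgr5 at -0.31 (adjusted p = 0.227) and Ascl2, which went the other way at 0.20 (adjusted p = 0.469, limma), did not pass. Of 3 proliferation genes Mki67 fell (-0.69, adjusted p = 0.0307, limma). Top2a at -0.61 (adjusted p = 0.0739) and the most abundant, Pcna, at -0.32 (adjusted p = 0.200, limma) did not pass. Of 2 tested tuft cell genes Trpm5 rose (0.78, adjusted p = 0.0379, limma). Vil1, Clca1, Fcgbp, Pyy, Chgb and Smoc2 passed in all 10 fits that left out 1 library, but Chga in 5, Mki67 in 4, Trpm5 in 3 and Cdx2 in 2.

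Markers of cells outside the epithelium were low, and several were higher in RhoB-/- libraries. Among all tested genes 7.73% were called higher and 13.5% lower. The leukocyte markers summed to 3.13 to 6.44 TPM in WT and 9.04 to 18.0 TPM in RhoB-/- libraries, and 2 of the 3 tested, Ptprc and Cd3e, rose. The fibroblast markers summed to 2.85 to 3.69 TPM in WT libraries and to 5.06, 5.99, 6.32, 14.5 and 33.8 TPM in RhoB-/- replicates 1 to 5, and Dcn, the most abundant, rose. Mesothelial markers summed to 1.23 to 1.55 TPM in WT libraries and to 2.07, 1.81, 2.34, 6.46 and 13.9 TPM in RhoB-/- replicates 1 to 5, with 0 of 2 tested genes past the threshold. Msln, the most abundant, was above every WT library in every RhoB-/- library (log2FC 0.94, adjusted p = 0.0715, limma). It passed as higher in 2 of the 10 fits that left out 1 library and in 3 of 7 other ways of processing. Smooth muscle markers, with Tagln the most abundant, summed to 1.05 to 2.28 TPM in WT and 1.52 to 1.97 TPM in RhoB-/- libraries, and endothelial markers, with Pecam1 the most abundant, to 0.76 to 1.22 and 0.66 to 1.4 TPM. Markers of squamous anal epithelium, which has its own keratins, summed to at most 2.85 TPM in any library, with Krt14 the most abundant and Trp63 listed at 0 in all. Their part in the keratin differences was not tested.

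Desmosomes, to which keratin filaments attach between cells, had 11 of 18 listed genes above the filter. Among all tested genes 7.73% were called higher and 13.5% lower, with a median log2FC of -0.13. Of the 11 desmosome genes, 4 rose and 0 fell, with a median log2FC of 0.33. They were the cadherins Dsg2 (0.51, adjusted p = 0.0364) and Dsc2 (0.51, adjusted p = 0.0251), the plakophilin Pkp3 (0.40, adjusted p = 0.0439) and the membrane protein Perp (0.45, adjusted p = 0.0287, limma). Perp was the most abundant, averaging 162.4 ± 15.8 TPM for WT and 224.1 ± 36.5 TPM for RhoB-/- mice (SD, n = 5 each). The keratin linker Dsp had a log2FC of 0.16 (95% interval -0.19 to 0.51) and Jup of 0.21 (95% interval -0.04 to 0.45). The plakophilin Pkp1 went the other way at -0.47 (adjusted p = 0.0547, limma) and passed as lower without WT replicate 3 or RhoB-/- replicate 3. With 1 library left out the log2FC stayed at 0.38 to 0.60 for Dsg2, 0.40 to 0.60 for Dsc2, 0.31 to 0.49 for Pkp3 and 0.38 to 0.53 for Perp, but they passed in 3, 8, 1 and 5 of 10 fits. The count of 4 was 0 without RhoB-/- replicate 1, 2 without WT replicate 5, and 1 without WT replicate 1, 3 or 4 or RhoB-/- replicate 4 or 5.

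Hemidesmosomes anchor keratins to the basement membrane. Among all tested genes 7.73% were called higher and 13.5% lower, with a median log2FC of -0.13. Of the 8 tested hemidesmosome genes 3 rose and 0 fell, with a median log2FC of 0.39. Those were the laminin chains Lama3 (0.78, adjusted p = 0.0280) and Lamb3 (0.58, adjusted p = 0.0162) and the integrin Itga6 (0.41, adjusted p = 0.0295, limma). Only Lamb3 passed in all 10 fits that left out 1 library, and the count was 1 without WT replicate 4, RhoB-/- replicate 1 or RhoB-/- replicate 5 and 5 without RhoB-/- replicate 3. The integrin Itgb4, its partner, had a log2FC of 0.01 (95% interval -0.32 to 0.34).

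Of 20 keratin-binding proteins and kinases of keratins, 3 rose and 0 fell, with a median log2FC of 0.07. Among all tested genes 7.73% were called higher and 13.5% lower, with a median log2FC of -0.13. The ubiquitin ligase Trim21 rose from 3.44 ± 0.793 to 7.05 ± 1.17 TPM (SD, n = 5 each; log2FC 0.87, limma adjusted p = 0.00289). The p38 kinase Mapk13 had a log2FC of 0.58 (adjusted p = 0.0138) and the keratin organizer Fam83h of 0.36 (adjusted p = 0.0364, limma). Fam83h passed in only 3 of the 10 fits that left out 1 library, those without WT replicate 2, RhoB-/- replicate 2 or RhoB-/- replicate 3. Sfn, the most abundant, had a log2FC of 0.36 (95% interval -0.11 to 0.84).

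Of 16 intermediate filament genes outside the keratins, 5 were tested. The nuclear lamin Lmna fell from 240.0 ± 24.3 to 178.5 ± 24.6 TPM (SD, n = 5 each; log2FC -0.43, limma adjusted p = 0.0267), with no overlap between the genotypes. Vimentin (Vim), the filament protein of mesenchymal cells and leukocytes, rose from 5.85 ± 1.03 to 11.0 ± 4.76 TPM (SD, n = 5 each; log2FC 0.73, limma adjusted p = 0.0438), beside the rise of Dcn, Ptprc and Cd3e above. The call of Vim held in only 1 of the 10 fits that left out 1 library, that without RhoB-/- replicate 2, and that of Lmna in 5.

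Without the library labelled RhoB-/- replicate 5, calls were lost for several genes named here, and each kept the sign of its difference. They were Krt23 (-0.55, adjusted p = 0.0558), Lmna (-0.41, adjusted p = 0.0588), Vim (0.53, adjusted p = 0.0754), Dsg2 (0.38, adjusted p = 0.0632), Perp (0.38, adjusted p = 0.0669), Pkp3 (0.31, adjusted p = 0.0909), Lama3 (0.71, adjusted p = 0.0688), Itga6 (0.37, adjusted p = 0.0683) and Fam83h (0.29, adjusted p = 0.0793, limma). They were also Cdx2 (0.38, adjusted p = 0.0987), Chga (-0.68, adjusted p = 0.0571), Mki67 (-0.63, adjusted p = 0.0721), Trpm5 (0.72, adjusted p = 0.0885), Cblc (0.34, adjusted p = 0.102) and Rbp2 (0.72, adjusted p = 0.103, limma).

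**Figure D4:**
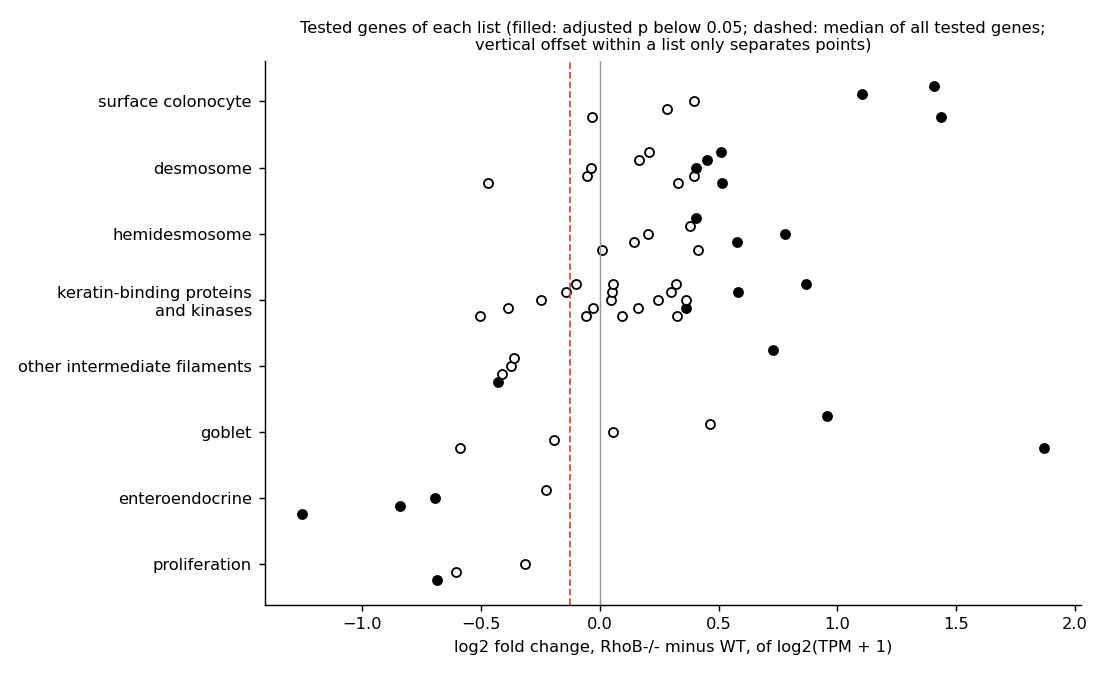
Log2 fold change (RhoB-/- minus WT, on log2(TPM + 1)) of each tested gene in 8 gene lists (points, filled for an adjusted p below 0.05, limma), with the median of all tested genes at -0.13 (dashed). Genes past the threshold in the surface colonocyte, desmosome and hemidesmosome lists were all higher in RhoB-/- mice, and the 3 in the enteroendocrine list were lower.

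With the genotype means taken off and both genotypes pooled, the keratins varied to different degrees together. Pearson's r of their log2(TPM + 1) deviations from the genotype means, over the 10 libraries, was 0.852 for Krt8 with Krt19, 0.838 for Krt8 with Krt20 and 0.712 for Krt8 with Krt18. It was 0.005 for Krt19 with Krt23. Values of one library share its scaling, so these are descriptions of the 10 libraries. The SD of Krt8 was 295.8 TPM for WT and 893.2 TPM for RhoB-/- mice, and that of Krt19 was 254.1 and 758.4 TPM. Their r is therefore weighted to the RhoB-/- libraries, while for Krt23 the SD was larger in WT mice (1.12 and 0.695 TPM). No r was computed for 1 genotype alone, so these values do not show that the keratins varied together in WT mice.
The tested genes most like each keratin by this measure were Psma3, Sdhaf2 and Eif4ebp1 for Krt7 (r from 0.934 to 0.957) and Capzb, Cblc and Trip10 for Krt8 (0.971 to 0.975). They were Hspa5, Tnfrsf12a and Degs1 for Krt18 (0.909 to 0.932) and Sec13, Pgk1 and Psmc6 for Krt19 (0.981 to 0.986). For Krt20 they were Cd274, Vps45 and Alas1 (0.973 to 0.99), and for Krt23 they were Rbp2, Nlrp9b and Paxx (0.938 to 0.947). Being alike by this pooled measure did not mean a like difference between the genotypes. Cd274 had a log2FC of 1.32 (adjusted p = 0.00308, limma), but Vps45 and Alas1 had 0.06 and 0.09, and Nlrp9b rose (1.04, adjusted p = 0.00194, limma) while Krt23 was lower. Rbp2 also rose (0.86, adjusted p = 0.0440), but this held in only 3 of the 10 fits that left out 1 library. These likenesses were picked as the highest of 12870 genes, and some depended on the scaling. With quantile normalization r fell to 0.341 for Krt8 with Capzb and to 0.329 for Krt19 with Pgk1.

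**Figure D5:**
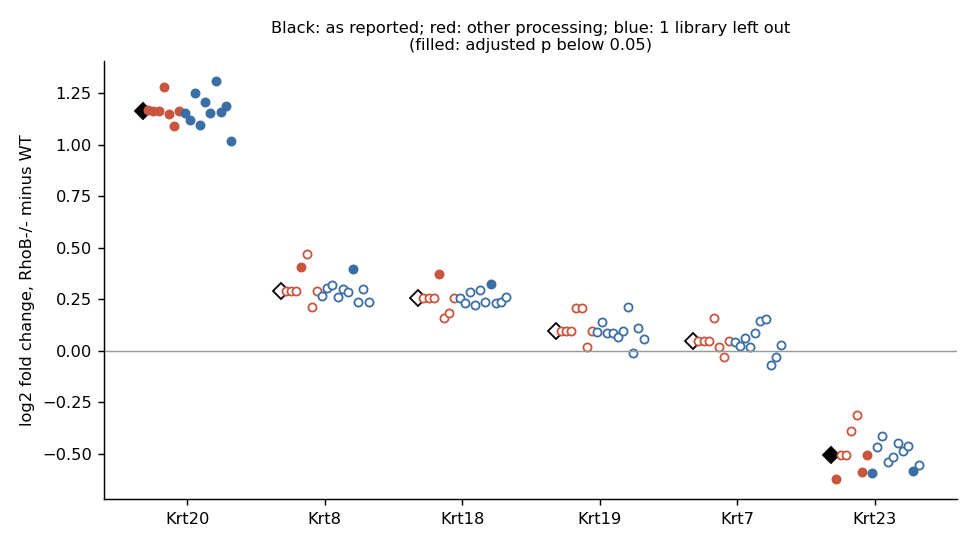
Log2 fold change (RhoB-/- minus WT) of each keratin as reported (black diamonds), with other processing (red) and with 1 library left out (blue), filled for an adjusted p below 0.05 (limma). Krt20 lay between 1.02 and 1.31 and was filled throughout, while Krt23 was filled in 2 of the 10 fits that left out 1 library.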

How the data were processed

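IEC libraries of 5 WT and 5 RhoB-/- mice were compared, with genotype and replicate number from the labels. The authors used SeqPrep and Sickle for trimming of paired-end reads, HISAT2 for alignment and StringTie for assembly, and deposited TPM values from RSEM. The submitters' processing notes also name edgeR and the build GRCm38.p6, and tool versions are not given in the sources used here. TPM was used as deposited, and depth is unknown. limma 3.58.1 (R 4.3.3), with an intensity trend, was fitted to log2(TPM + 1) of genes that averaged 1 TPM or more, after the procedure had been tested on simulated data. Fold changes on this scale understate changes of low genes. For each keratin an exact permutation test, two-sided, used all 252 assignments of 5 of the 10 libraries. The members and lists were chosen with earlier results of these data known. Genes named are the 6 keratins, other keratins that averaged 1 TPM or more, up to 4 called genes and the most abundant gene of each list, Rhob and the 3 genes most like each keratin. Others, such as Cdh1, Dsp, Jup, Itgb4, Slc26a3, Guca2a, Agr2, Pkp1, Lgr5, Ascl2 and keratins below the filter, were named after their values were seen. A planned result on other genes is not reported here. Alternatives were a pseudocount of 0.1, no filter, a replicate block, equal library medians, quantile normalization, leaving out mitochondrial genes, no trend, each library left out, the paper's call rule and ratios of mean TPM. Positions are from GENCODE M21 (GRCm38), and promoter sequences from RefSeq. Python 3.11.15 was used for summaries.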

Additional observations from a re-analysis of the deposited data

Results flagged for a closer look

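Krt87 in WT replicate 5 had 9.98 TPM, far from the 1.87 to 2.45 TPM of the other 4 WT libraries, with a gap of 0.928 of the range of the group. Among 32 groups of 5 values examined this way, 1 had such a value, where chance gives about 1.6.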

How the results depend on the processing

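The rise of Krt20 passed an adjusted p below 0.05 under every alternative that gives a test (log2 fold change 1.09 to 1.28, adjusted p 0.00103 to 0.0123, limma) and in all 10 fits that left out 1 library (1.02 to 1.31, adjusted p 0.000704 to 0.00848). Depth is unknown, so counting error is not part of any of these values, and the causes of the changes below were not tested.
Krt23 was at -0.51 (log2FC) with unfiltered genes (adjusted p = 0.0997, with more genes tested), -0.39 with library medians made equal (adjusted p = 0.0871) and -0.31 with quantile normalization (adjusted p = 0.169, limma). Of the 6 keratins, 0 were then called lower. The count was also 0 under the unadjusted rule with a fold change above 1.5 on log2(TPM + 1), which the ratio of mean TPM of Krt23, 0.641, would pass. Among the other keratins, Krt83 was lower in the unfiltered fit (log2FC -0.99, adjusted p = 0.00516, limma). Library medians made equal gave 3 of the 6 keratins called higher, with Krt8 at 0.41 and Krt18 at 0.37 (adjusted p 0.0233 and 0.0285, limma). Without mitochondrial genes Krt7 was at -0.0305 (adjusted p = 0.885).
The replicate number did not pair the mice, which are different animals: the deviations of libraries with the same number had correlations of -0.0874 to 0.072, and only replicate 3 was most alike its own number. With the number as a block, 1059 genes were lower and 836 higher. The log2FC of Krt23 was then -0.51 (adjusted p = 0.0814, limma), so 0 of the 6 keratins were lower. With the block, 0 other intermediate filament genes were lower and 2 desmosome genes higher. Among the 6 keratins, no other call changed.
Of all genes, 995 were higher and 1734 lower as reported, 2004 and 1608 with medians made equal, 1587 and 1975 with quantile normalization, 1101 and 3729 without mitochondrial genes, and 820 and 1072 under the unadjusted rule. Across fits missing 1 library, between 719 and 1154 genes were higher and between 853 and 2868 lower. The lower count moved by over 1.5 times without WT replicate 2 (950), WT replicate 4 (853), RhoB-/- replicate 1 (985), RhoB-/- replicate 3 (2868) or RhoB-/- replicate 5 (1116).
With medians made equal, 7 desmosome, 5 hemidesmosome and 7 keratin-binding genes were higher and 2 other intermediate filament genes were lower. Quantile normalization gave 5 higher keratin-binding genes and 2 lower other filament genes. Without mitochondrial genes, 3 other filament genes and 1 desmosome gene were lower. Without the filter, 0 other filament genes and 1 desmosome gene were higher. That desmosome gene was none of Dsg2, Dsc2, Pkp3 and Perp, which all lost their calls there (adjusted p 0.0504 to 0.0747, limma). With 1 library left out, 1 to 3 of the 6 keratins were called higher and 0 to 1 lower. In these fits other filament genes called numbered 0 to 1 higher and 0 to 4 lower, and desmosome genes 0 to 5 higher and 0 to 1 lower. Hemidesmosome genes called numbered 1 to 5 higher, keratin-binding genes 2 to 4 higher and surface colonocyte genes 3 higher.
With 1 library left out, log2 fold changes ranged from -0.59 to -0.42 for Krt23, 0.24 to 0.40 for Krt8, 0.22 to 0.32 for Krt18, -0.0110 to 0.21 for Krt19 and -0.0700 to 0.15 for Krt7. Genes not called as reported changed sign in such fits: Krt10 (-0.18 to 0.0420), Krt12 (-0.0346 to 0.36), Krt14 (-0.14 to 0.15), Krt15 (-0.12 to 0.0259, in 7 fits, as it was below the filter in the others), Psma3 (-0.13 to 0.18), Hspa5 (-0.0516 to 0.13), Tnfrsf12a (-0.15 to 0.11), Sec13 (-0.16 to 0.0378), Psmc6 (-0.0911 to 0.0835), Vps45 (-0.12 to 0.20), Alas1 (-0.0215 to 0.18), Itgb4 (-0.0662 to 0.10) and Guca2a (-0.0904 to 0.0682).
The sign also turned with medians made equal for Krt10 (0.0172), Krt14 (0.11), Krt15 (0.0450), Tnfrsf12a (0.0395), Sec13 (0.0550), Psmc6 (0.10) and Guca2a (0.0800), with quantile normalization for Krt10 (0.0645), Krt14 (0.0545), Krt15 (0.0246), Psma3 (-0.00256), Hspa5 (-0.11) and Itgb4 (-0.00429), and without mitochondrial genes for Psma3 (-0.0461), Sdhaf2 (-0.0109), Hspa5 (-0.0667), Vps45 (-0.00796) and Itgb4 (-0.0656). Over 69 named genes above the filter other than the 6 keratins, 1170 values were computed, of which 126 lost and 27 gained the threshold and 51 turned sign. Lgr5 and Ascl2 were not among them. Calls were gained with other processing for Agr2, Capzb, Degs1, Epcam, Jup, Msln, Pcna, Pgk1, Pkp1 and Trip10. With 1 library left out they were gained for Agr2, Axin2, Capzb, Degs1, Msln, Pcna and Pkp1. Calls were lost without the filter for Cblc, Cdx2, Chga, Dcn, Dsc2, Dsg2, Fam83h, Lama3, Mki67, Perp, Pkp3, Rbp2, Trpm5 and Vim, with the block for Cblc, Cdx2, Fam83h, Itga6, Lmna, Perp, Pkp3 and Trpm5, without the trend for Cblc, Cdx2, Pkp3 and Rbp2, with medians made equal for Chga, and with quantile normalization or without mitochondrial genes for Itga6.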
